A study of Mus musculus with 8 samples.

Results

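The matrix proteases and their inhibitors were 84 of the 21951 protein-coding genes of the GENCODE M21 annotation of the mouse genome (GRCm38), chosen by gene symbol alone. They comprised 33 ADAM genes, 19 ADAMTS genes, 5 ADAMTSL genes, 16 secreted and 6 membrane-bound matrix metalloproteinases (MMPs), the 4 tissue inhibitors of metalloproteinases (Timp1 to Timp4) and Reck. The measurements were 131 summits of m6A peaks that fell in exons of 18 of these genes, out of 42744 summits in 4 peak lists.

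To determine where m6A lay on transcripts of vascular smooth muscle cells (VSMCs) and how its peaks changed with less of its writer, the study performed m6A-RIP-seq, in which RNA fragments bound by an anti-m6A antibody (IP) are sequenced and set against the input RNA. The cells were primary VSMCs grown from the descending aorta of adult wild-type C57BL/6J mice, and all of them carried a lentiviral vector. The 2 control samples (shCTR A and B) expressed a hairpin against a plant microRNA sequence, and the 2 knockdown samples (shMettl14 A and B) expressed one against Mettl14, the partner of Mettl3 in the complex that writes m6A. The labels do not say whether A and B came from separate animals or cultures, so any p-value measures only the spread between these lists, which may be technical.

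ADAM, ADAMTS and MMP enzymes are zinc-dependent proteases. MMPs degrade collagens, elastin and other matrix proteins, and ADAMTS enzymes are secreted and cut proteoglycans, procollagens and related proteins. Most ADAMs sit in the membrane, and some of them release the outer parts of other membrane proteins. TIMPs block these enzymes by binding their active sites, Reck is a membrane-anchored inhibitor, and ADAMTSL proteins resemble ADAMTS enzymes but lack the protease domain. Loosening of the matrix by such enzymes lets VSMCs of an injured artery move from the media into the intima. The m6A mark lies mostly in the sequence DRACH, where D stands for any base but C, R for a purine and H for any base but G, and is concentrated near stop codons and in long internal exons.

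For 9 of the 12 members with the strongest peaks in all 4 lists, the DRACH site nearest to the median position of the 4 lists' best summits in 1 region is printed to show the sequence at the peak, within the region with the highest mean percentile over the lists. In Mmp16 that site lay 49 nt from the median, and farther from the summits of shCTR B and shMettl14 B. The sites are given on the strand of the gene from the GRCm38 assembly, with the motif in capitals and 10 nt on each side. The methylated base itself was not mapped by the assay, and a neighbouring site may carry the mark. The Mmp28 peak also overlaps an exon of 1700020L24Rik on the opposite strand, so the gene and strand of its site are uncertain.
Mmp28 (chr11:83441162-83441186, minus strand): agagggctaaGGACAccccgaggct
Adamts1 (chr16:85795587-85795611, minus strand): agccagtaccAGACCttgtgcagac
Mmp14 (chr14:54441178-54441202, plus strand): tttaccctaaAGACTttgataagaa
Adamtsl3 (chr7:82574567-82574591, plus strand): taagccaaaaGGACCtgttctcatg
Mmp16 (chr4:18116159-18116183, plus strand): aagaggaaagGAACAccccgccaca
Adamts7 (chr9:90194003-90194027, plus strand): ctaaaaactcTGACAatgcctggga
Adam17 (chr12:21325349-21325373, minus strand): aggatctcacAGACCacccagtcac
Mmp19 (chr10:128798940-128798964, plus strand): ctccagacacTAACTcatcaaccgg
Adamts12 (chr15:11311158-11311182, plus strand): gggaagacagTGACCagcctttgaa
Mmp24, another of the 12, had no DRACH within 50 nt of its median summit. In 17 of the 19 member regions found in all 4 lists a DRACH site lay within 50 nt of the median summit, at distances of 0 to 49 nt, and 10 regions had a site that begins with GGAC.

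The authors called 1 peak list per IP sample, with its input as background. The control lists held 11158 (A) and 8655 (B) summits and the knockdown lists 13675 (A) and 9256 (B). The median summit was covered by 13 to 16 IP fragments, as recovered from the deposited fold enrichment and p-value. Exons of Mettl14 held 0 summits in each list, and since the lists give no RNA level, they offer no check of the knockdown. A gene without a summit may be unmethylated, weakly expressed or not expressed, and these cannot be told apart from the lists. Of the smooth muscle markers, 2 of 7 had an exonic summit: Cald1 with 4, 4, 4 and 5 summits (shCTR A, shCTR B, shMettl14 A, shMettl14 B) and Myh11 with 1, 1, 2 and 0, while Acta2, Tagln, Cnn1, Myl9 and Smtn had none. Of the endothelial markers, 3 of 4 had one (Cdh5 with 3, 4, 7 and 4 summits, Pecam1 with 1 in each list, and Kdr with 1, 1, 1 and 0), and of the macrophage markers, 1 of 4 (Csf1r, 1 summit in shMettl14 B). Whether cells of other types contributed to the peaks of the proteases was not tested.

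First, the members that carried a peak were counted. An exonic summit was found in 16 (A) and 14 (B) members in the control lists and in 16 (A) and 13 (B) in the knockdown lists. The groups overlapped, with means of 15 ± 1.41 in shCTR and 14.5 ± 2.12 in shMettl14 (SD, n = 2; exact permutation test, two-sided, p = 1.0, where the smallest p that 4 lists allow is 0.333). In all, 18 of the 84 members (21.4%) had a summit in at least 1 list, against 25.3% of all protein-coding genes, and 13 (15.5%) had one in all 4 lists, against 16% of all protein-coding genes. No member had summits in both lists of one shRNA and in neither list of the other, as had only 0.287% (control only) and 0.333% (knockdown only) of all protein-coding genes.

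The peaks were spread unevenly over the classes. Among the ADAMTS genes 8 of 19 had a summit, but only 4 had one in all 4 lists, where 16% of all protein-coding genes did. The rest (Adamts4, Adamts6, Adamts10 and Adamts15) had a single summit in a single list. Among the ADAMTSL genes 2 of 5 and among the membrane-bound MMPs 3 of 6 had a summit, each in all 4 lists. In contrast, 3 of 33 ADAMs and 2 of 16 secreted MMPs had one. None of the 4 TIMPs had an exonic summit in any list, nor had Reck. Among the ADAMTS genes, 4 of the 7 that cut aggrecan or versican had a summit (Adamts1, Adamts4, Adamts5 and Adamts15), 2 of them in all 4 lists. Both that cut cartilage oligomeric matrix protein (Adamts7 and Adamts12) had one in all 4 lists. None of the 3 procollagen N-proteinases (Adamts2, Adamts3 and Adamts14) had one, nor had Adamts13, which cuts von Willebrand factor. Many ADAM genes are used mainly in the testis, and these classes were not compared by a test.

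**Figure D1:**
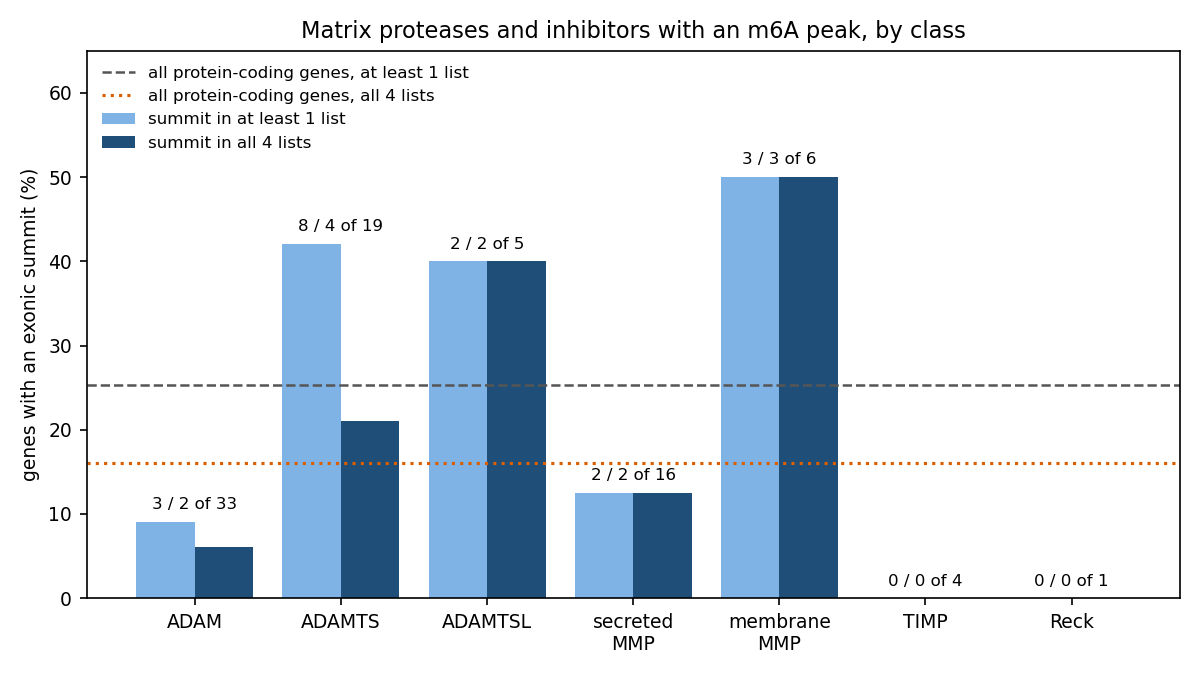
Share of genes in each class with an m6A summit in an exon (percent, vertical axis) in at least 1 peak list (light bars) and in all 4 lists (dark bars), with the gene counts above each pair of bars. The membrane-bound MMPs, ADAMTS and ADAMTSL genes stand above the level of all protein-coding genes (dashed line at 25.3% for at least 1 list, dotted line at 16% for all 4 lists), the ADAMs and secreted MMPs stand below it, and the TIMPs and Reck are at 0.

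Member summits numbered 29 in each control list, and 42 (A) and 31 (B) in the knockdown lists. Both knockdown lists therefore held more, by 7.5 summits on average, but shMettl14 A was also the longest list (exact permutation p = 0.333, the smallest possible). The difference was 3 with each interval counted once (exact permutation p = 0.667), 4 with equal list lengths, 2 with shMettl14 A left out and 13 with shMettl14 B left out. Per 1000 summits of the list the values were 2.60, 3.35, 3.07 and 3.35, and the groups overlapped. The mean percentile of the member summits was 53.5 ± 5.32 in shCTR and 53.7 ± 3.31 in shMettl14 (SD, n = 2; exact permutation p = 1.0). A percentile is the place of a summit's fold enrichment among all summits of its list, from 0 for the lowest to 100 for the highest, so that the average over a whole list is 50.

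Adamts5, the main aggrecan-degrading protease of mouse cartilage, carried the most summits of any member, with 5, 7, 7 and 10 in shCTR A, shCTR B, shMettl14 A and shMettl14 B. Its strongest exonic summit stood at percentiles 94.5, 95.4, 96.6 and 96.8. The summits formed 3 regions that were present in all 4 lists. The first lay in the coding part of exon 1, an exon of 2665 nt, 1800 to 1850 nt before the stop codon at its strongest summits, where 62, 100, 55 and 76 fragments were piled up (percentiles 94.5, 95.4, 95.7 and 93.4). The second spanned the stop codon in the last exon of 7005 nt, with 4 separate summits per list between 336 nt before and 578 nt after the stop. The strongest summit of each list had percentiles of 89.0 and 92.8 in shCTR and of 96.6 and 96.8 in shMettl14. The groups did not overlap, yet the difference did not pass the test given below. These were different summits of the region, 559 nt after and 333 nt before the stop codon in shCTR A and B. In shMettl14 A and B they lay 213 nt after and 108 nt before it, so no single peak is compared. Adamts5 thus carried peaks in exon 1 and around the stop codon in every list.

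The third region of Adamts5 shows how an exon edge can shift a summit out of the count. Its intervals reached from the intron into the first part of exon 2, which is 133 nt long, with 21, 32, 33 and 44 fragments and percentiles of 89.4, 90.0, 92.3 and 88.7. The summits of the knockdown lists fell at base 9 and base 2 of the exon, whereas those of the control lists fell 16 and 31 nt before its first base, in the intron. Counted by exonic summits alone, this site would be present only in the knockdown lists, although an interval overlapped the exon in each of the 4 lists. The strongest summit of exon 1 lay 149, 164, 114 and 123 nt before the same exon junction, so both regions lie close together on the spliced transcript. A weak summit in the 5′ UTR was listed in shMettl14 B only (9 fragments).

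Adamts1, a related protease that cuts aggrecan and versican, had 1 region, in the coding sequence just before the stop codon. The strongest summits lay 164 to 262 nt before the stop, with 85, 78, 56 and 61 fragments. Their percentiles were 94.6 and 90.4 in shCTR and 81.6 and 97.1 in shMettl14, with the knockdown values on either side of both control values. In shMettl14 A the region was split into 3 summits, where the other lists had 1. Of the other aggrecan- or versican-cutting members, Adamts8, Adamts9 and Adamts20 had 0 summits, and a pair had 1 summit each: Adamts4 in shCTR A (131 nt before the stop codon, 12 fragments, percentile 59.4) and Adamts15 in shMettl14 A (181 nt before the stop codon, 3 fragments, percentile 1.76).

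Adamts7 and Adamts12, which cut cartilage oligomeric matrix protein, carried their exonic peaks in a long internal exon. These lay 955 to 1733 nt before the stop codon in Adamts7 and 1095 to 1320 nt before it in Adamts12. In Adamts7 all exonic summits lay in exon 19 of 24, which is 1371 nt long. The strongest had 13, 9, 13 and 7 fragments at percentiles 76.1, 51.6, 79.9 and 38.9. In Adamts12 all exonic summits lay in exon 19 of 24, which is 1110 nt long, with 16, 10, 13 and 11 fragments at percentiles 44.1, 29.8, 56.9 and 31.0. In both genes the A list exceeded the B list under either shRNA, and the groups overlapped. Adamts6 had a single summit in shCTR A, 3039 nt before the stop codon (8 fragments), and Adamts10 one in shMettl14 A, in the 3′ UTR of a transcript other than the one used for positions (12 fragments).

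Adamtsl3, a protease-like protein of the matrix without enzyme activity, had 13 summits, the second highest number. One region lay in exon 21 of 30 (1075 nt), with 39, 30, 26 and 23 fragments and percentiles of 70.4, 55.2, 79.0 and 63.0. Another region lay in the 3′ UTR, 438 to 468 nt after the stop codon, with 29, 18, 18 and 13 fragments and percentiles of 77.6, 63.5, 66.3 and 50.2. The 3′ UTR region was the higher of both in the control lists and the exon 21 region in the knockdown lists, a difference that was not tested. A weak summit in exon 22 was listed in shMettl14 A only (13 fragments). Adamtsl5 had 2 neighbouring regions at its 3′ end in all 4 lists, mostly in exons of transcripts that GENCODE marks as noncoding and RefSeq places in an exon of the gene. The strongest summit of the nearer region in shMettl14 A was the exception, in the 3′ UTR 88 nt after the stop codon. The region nearer to the stop codon had percentiles of 75.6, 48.4, 58.0 and 70.6, and the farther one of 75.6, 62.3, 6.97 and 58.7, where shMettl14 A was far below the other lists with 6 fragments against 16, 18 and 12.

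**Figure D2:**
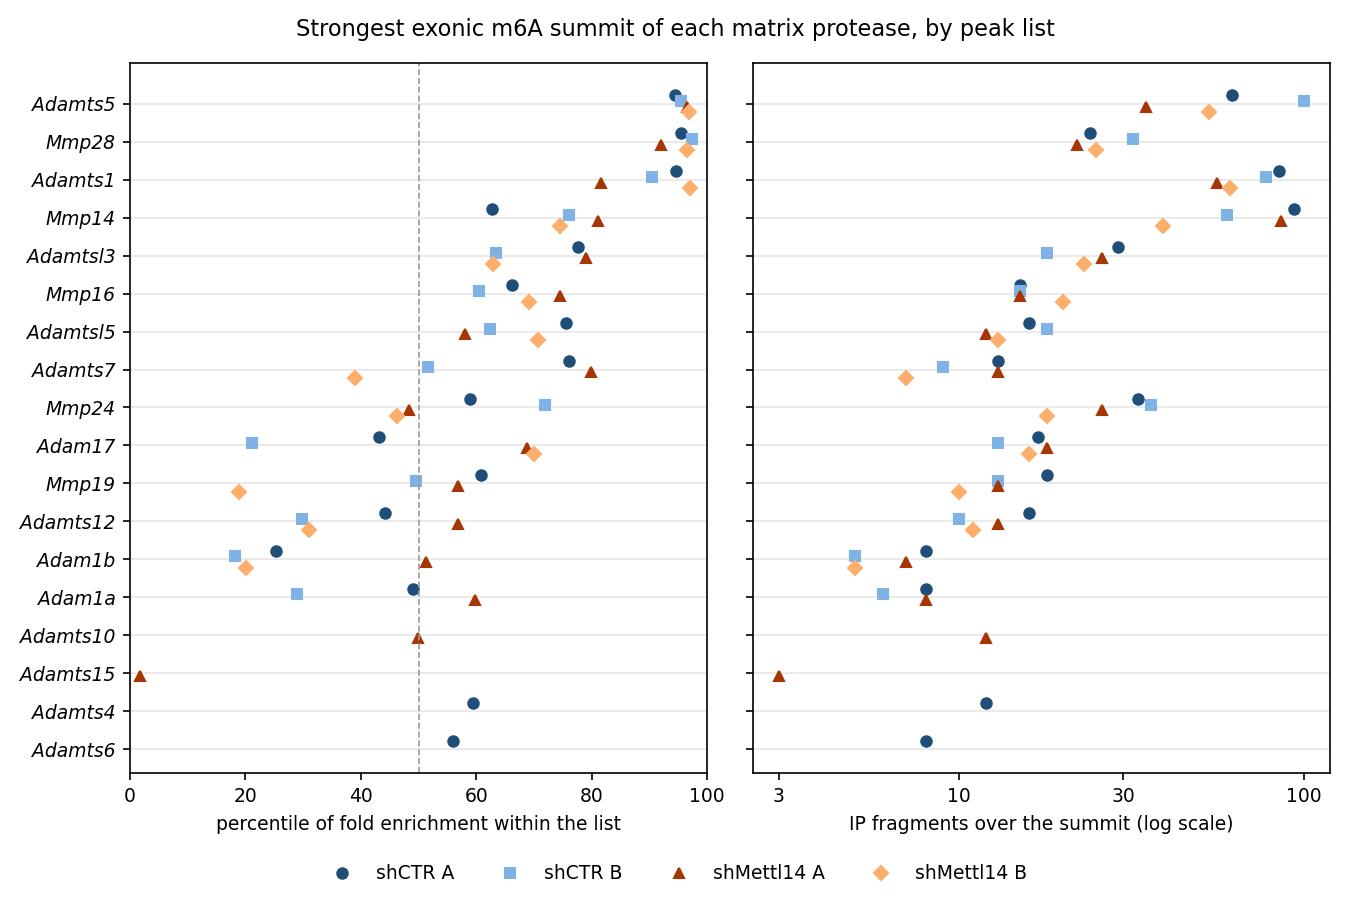
Strongest exonic summit of each of the 18 members with a peak (rows), by its percentile of fold enrichment within the list (left, 50 marked by a dashed line) and by the IP fragments over it (right, log scale), with 1 symbol per peak list. Adamts5, Mmp28 and Adamts1 stand at percentiles of 81.6 or higher in every list, whereas Adam1b, Adamts12 and Mmp19 are spread from 18.2 to 60.8. The summits of Mmp28 and Mmp24 also lie in exons of other genes, so their gene is uncertain.

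Of the membrane-bound MMPs, Mmp14, which activates pro-Mmp2 at the cell surface and degrades collagen, had 3 exonic summits in each list. The strongest lay in the 3′ UTR, 499 to 535 nt after the stop codon, with 94, 60, 86 and 39 fragments. It stood at percentiles 62.7, 76.0, 81.1 and 74.5, and the groups overlapped. A pair of summits in the last part of the coding sequence, 41 to 266 nt before the stop codon, had a best percentile of 15.1, 21.6, 53.7 and 13.1, low in every list but shMettl14 A. The background at the main summit was 9.38, 4.31, 6.76 and 2.58 fragments, the highest of any member at its strongest summit in 3 of the 4 lists, so many fragments gave a moderate fold enrichment. A further summit in each list (27, 35, 28 and 18 fragments) lay 237 to 328 nt beyond the exons that GENCODE gives for Mmp14 and inside its last exon in RefSeq.

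Mmp16, another membrane-bound MMP, had a region before the stop codon (percentiles of its best summit 66.2, 60.5, 74.4 and 33.9) and one in the 3′ UTR 382 to 579 nt after it (62.8, 58.0, 35.4 and 69.0), each with 12 to 20 fragments at the strongest summit of a list. In Mmp24 the only summit lay 1937 to 1958 nt after the stop codon, near the end of the transcript, with 33 and 36 fragments in shCTR and 26 and 18 in shMettl14. Its percentiles were 59.0 and 71.8 in shCTR and 48.3 and 46.3 in shMettl14, and the groups did not overlap. The position is also an exon of BC029722, and without the strand of the reads the signal cannot be assigned to Mmp24 alone.

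Among the secreted MMPs a summit was found in Mmp19 and Mmp28. In Mmp19, 1 summit per list lay 115 to 143 nt before the stop codon, with 18, 13, 13 and 10 fragments and percentiles of 60.8, 49.5, 56.9 and 18.8. In Mmp28 (epilysin) the strongest summit had 24, 32, 22 and 25 fragments and percentiles of 95.5, 97.4, 92.1 and 96.6, among the highest of all members. It lay in the 3′ UTR of a second coding transcript of Mmp28, which overlaps an exon of 1700020L24Rik on the opposite strand, so its gene is uncertain. Weaker summits of 8, 7 and 15 fragments lay in the same region in shCTR A, shMettl14 A and shMettl14 B, and 1 of 3 fragments lay 160 nt after the stop codon in shMettl14 B. The gelatinases Mmp2 and Mmp9 and the stromelysin Mmp3, which digest collagen fragments and many other matrix proteins, had 0 exonic summits in each of the 4 lists.

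The sheddase Adam17, which releases tumour necrosis factor and ligands of the epidermal growth factor receptor, was listed with 1, 1, 4 and 2 summits. Its main region lay at the stop codon, with the strongest summit 58 to 152 nt before it and 17, 13, 18 and 16 fragments. The percentiles were 43.1 and 21.2 in shCTR and 68.7 and 70.0 in shMettl14, so both knockdown lists lay above both control lists. A second region in the 3′ UTR, 961 to 983 nt after the stop codon (chr12:21324227-21324417), was listed in both knockdown lists with 11 and 8 fragments and in neither control list. It is the only member region found in both lists of one shRNA and neither list of the other. Adam1a and Adam1b, neighbouring single-exon genes with similar sequences, carried weak coding summits of 5 to 8 fragments: Adam1b 1 in each list, and Adam1a 1, 2, 3 and 0. Only unique alignments were kept, so reads that match both genes would not be counted.

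The inhibitors had no exonic peaks. Timp1, Timp2, Timp3, Timp4 and Reck each had 0 exonic summits in shCTR A, shCTR B, shMettl14 A and shMettl14 B. The last exon was 263 nt long in Timp1, 2828 nt in Timp2, 3802 nt in Timp3, 4592 nt in Timp4 and 1663 nt in Reck. Timp2 contained 15 summits of 9 to 22 fragments in an intron, over all 4 lists. Of these, 10 lay in an exon of Cep295nl, a gene nested in that intron on the same strand, and the rest at least 11824 nt from any exon of Timp2.

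The position of the peaks was then compared with that in all coding transcripts, over the 111 member summits that lay in the coding transcript of a single gene. Of these, 83 were in the coding sequence, 27 in the 3′ UTR and 1 in the 5′ UTR. Within 200 nt of the stop codon lay 29 of 111, or 24% to 27.8% per list, against 25.4% to 27.1% of all such summits, while 8.13% of the positions in the 18 transcripts lie that close. The share was 24.5% ± 0.707 in shCTR and 27.4% ± 0.604 in shMettl14 (SD, n = 2; exact permutation p = 0.333, the smallest possible), and the sign of this small difference turned with a stricter peak threshold. Of the 59 coding summits farther from the stop codon, 55 lay in an exon of at least 400 nt, with 90% to 100% per list against 96.6% to 98.0% of all. Of the 10 members with an internal exon that long, 3 had a peak in it in every list (Adamts7, Adamts12 and Adamtsl3), and 7 had no exonic peak at all. Several summits share a gene, so they are not independent.

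**Figure D3:**
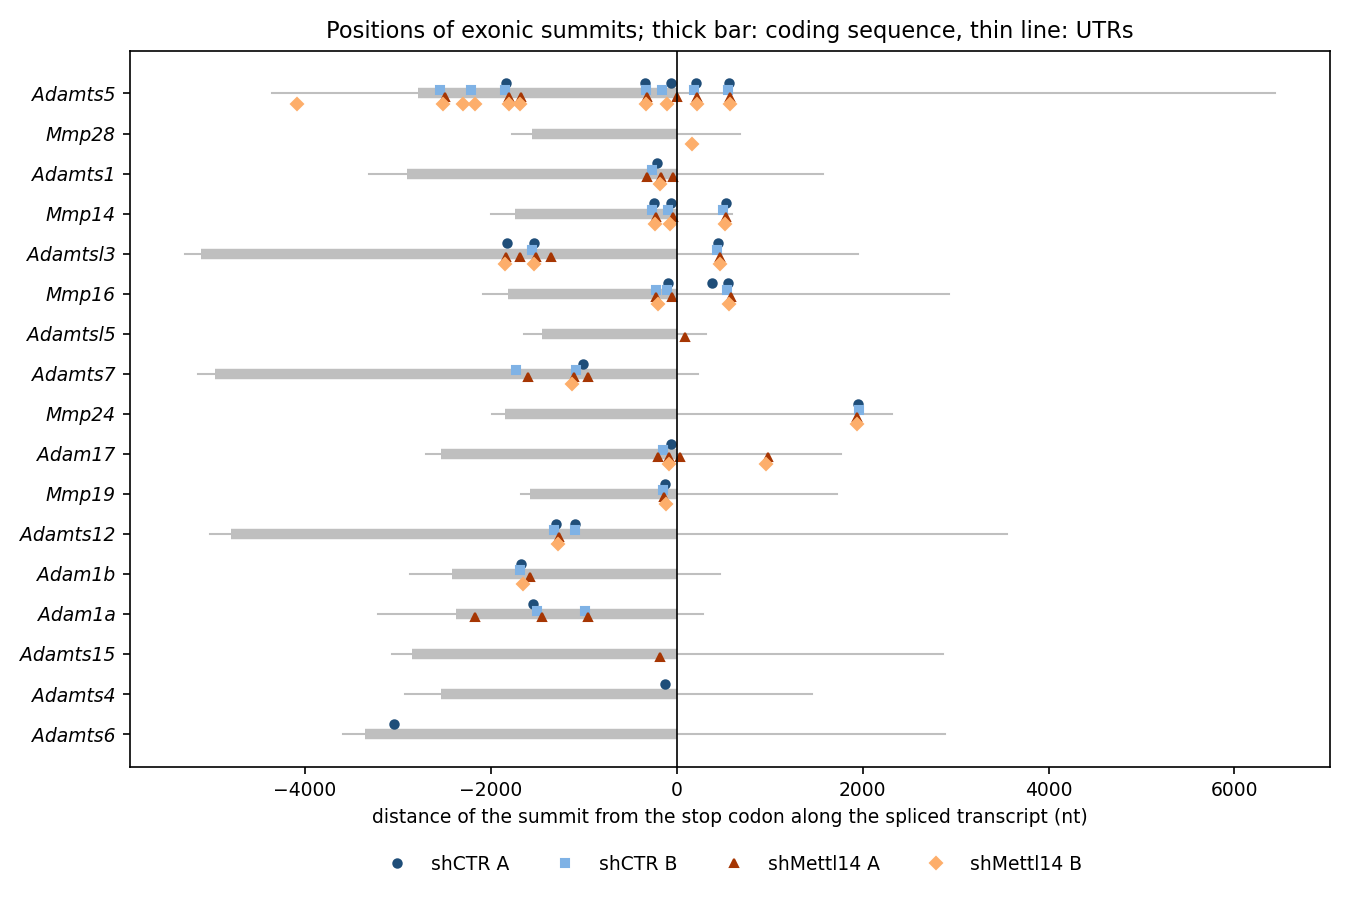
Distance of each summit from the stop codon (horizontal axis, nt along the spliced transcript, 0 at the stop codon) for the 17 members with a summit in the coding transcript used for positions, with the coding sequence as a thick bar, the UTRs as thin lines and 1 symbol per peak list. The summits of Adamts1 and Mmp19 lie 36 to 318 nt before the stop codon, those of Mmp14, Mmp16 and Adam17 on both sides of it, those of Adamts7 and Adamts12 lie far before it, and those of Adamts5 lie both around it and far before it.

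A DRACH site lay within 50 nt of 104 of the 111 summits, with 88% to 97.2% per list against 94.9% to 96.2% of all summits, but 88.3% of all positions in the 18 transcripts are that close to one. The member shares were 89.8% ± 2.59 in shCTR and 96.7% ± 0.755 in shMettl14 (SD, n = 2; exact permutation p = 0.333, the smallest possible). The stricter motif GGACT was near 9 of the 111 summits, or 4.17% to 12% per list, whereas 19.7% to 23.6% of all summits had it, and 10.1% of the positions in the 18 transcripts. Members with a summit had a median 3′ UTR of 1649 nt against 560.5 nt in the 66 members without one. The same order held among all protein-coding genes, with medians of 1373 nt and 564 nt.

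To determine whether any peak of the proteases gained or lost rank with Mettl14 knockdown, intervals of the 4 lists were merged into regions, and those found in all 4 lists were compared by limma on normal scores of their rank by fold enrichment within each list. The members had 30 regions, of which 19 (63.3%) were found in all 4 lists, against 43.4% of all 11361 regions. These sets are unlike, since member regions need an exonic summit and the 11361 include regions without one, such as those in introns. None of the 19 passed an adjusted p of 0.05, and none of the 4929 regions tested did (0% called, smallest adjusted p = 0.796 over all and 0.985 among the members, limma with Benjamini-Hochberg adjustment). At an unadjusted p under 0.05 by limma there were 0 member regions and 243 of all regions (2.41% higher and 2.52% lower in shMettl14). Fisher's exact test on recovered fragments called 0 regions, with 0 of all 4929 at an unadjusted p under 0.05. Its rounded backgrounds were small (0 to 14 fragments per shRNA in member regions), so it could hardly call any region and adds no evidence. The limma test is blind to a shift shared by all sites, since their order would stay as it was.

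The differences of the members ran in both directions, with 9 regions higher and 10 lower in shMettl14 and a median difference of -0.08 score units, against 0.00212 over all regions. The largest gain was that of the Adam17 region at the stop codon (difference 1.03 ± 0.50 score units, SE, adjusted p = 0.985 by limma), and the largest loss that of the Adamtsl5 region farther from the stop codon (-1.14 ± 0.57, adjusted p = 0.985 by limma). For the strongest regions of Adamts5 and Adamts1 the differences were -0.08 ± 0.49 and -0.15 ± 0.53 score units, smaller than their errors. Both knockdown scores exceeded both control scores in 3 of the 19 regions (Adam17, Adamts5 at the stop codon and Adam1b), where 17% of all regions did so, and lay below both in 4 (Adamtsl5, Mmp19, Mmp24 and Adamtsl3 in the 3′ UTR), where 15.8% did. The scores rank a region among those of all 4 lists, so they can separate groups whose percentiles overlap, as in Adam1b (25.3, 18.2, 51.3 and 20.01).

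**Figure D4:**
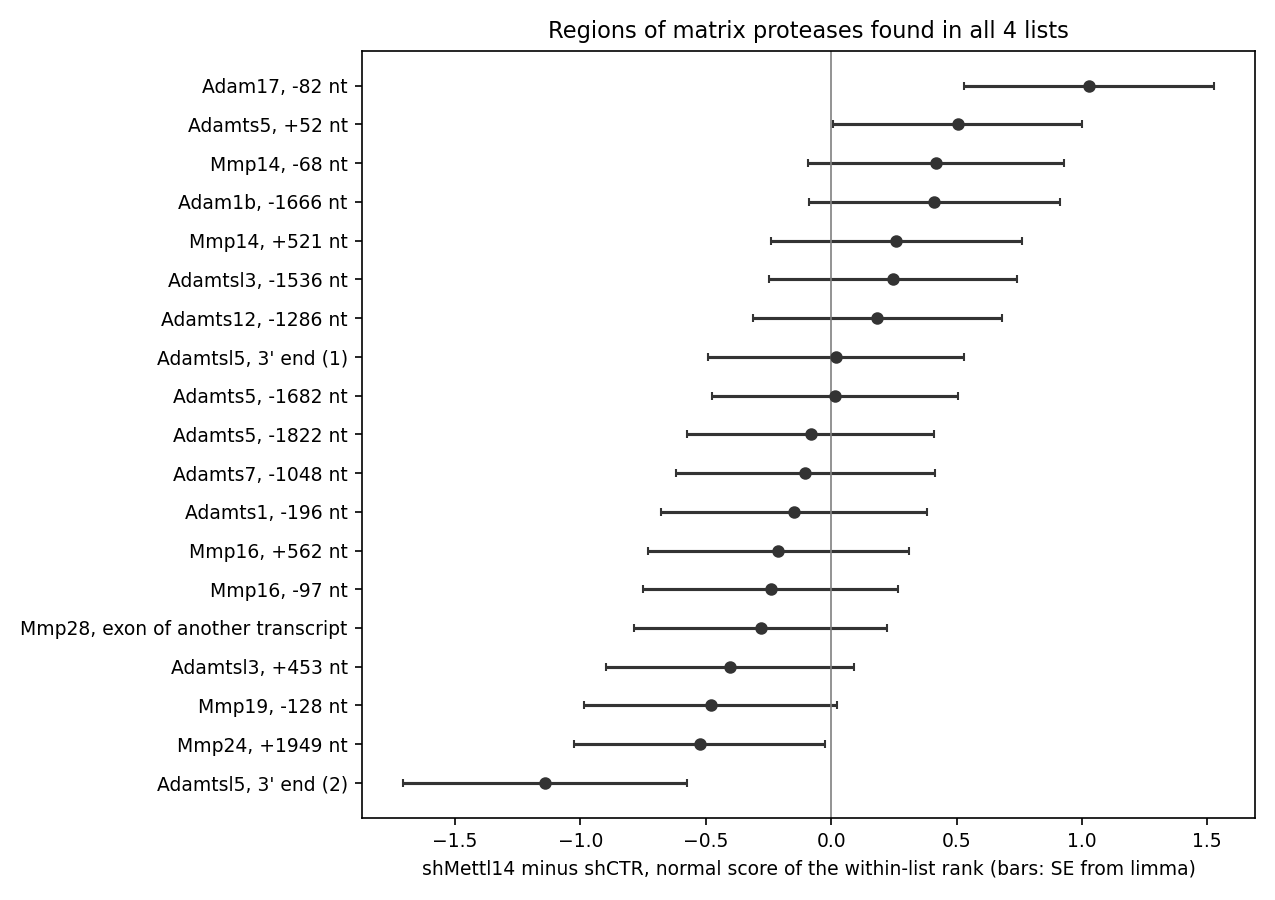
Difference between shMettl14 and shCTR in the normal score of the within-list rank (horizontal axis, score units; bars are limma standard errors) for the 19 member regions found in all 4 lists, named by gene and by the median distance of the strongest summits from the stop codon. The differences run from -1.14 for a region at the 3′ end of Adamtsl5 to 1.03 for the Adam17 region at the stop codon, and none passed the test.

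Of the 30 member regions, 0 were found in both control lists and neither knockdown list and 1 in both knockdown lists and neither control list (that of Adam17), where 1.71% and 1.79% of all regions were of these kinds. The count of such member regions was 0 when every list was cut to the same number of summits, 1 with shCTR A left out, 3 with shCTR B left out, 4 with shMettl14 A left out and 5 with shMettl14 B left out. Of all regions, 12.7%, 14.8%, 14.4% and 17.5% were of one shRNA only with these lists left out, against 3.57%, 10%, 15.4% and 17.9% of the member regions. By the authors' interval files of peaks shared by both replicates, 19 of the 30 regions were in the file of each shRNA, 1 in the knockdown file alone (Adam17, as above), 1 in the control file alone (Adam1a, also listed in shMettl14 A) and 9 in neither. Of the 11 regions that were not in all 4 lists, 8 were in a single list.

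Other genes of matrix proteolysis were described by counts, from a list of 48 activators, further proteases, inhibitors and substrates. An exonic summit in at least 1 list was found for 18 of the 48, and in all 4 lists for 14, against 25.3% and 16% of all protein-coding genes. Of the proprotein convertases that activate many of these enzymes, 3 of 4 had one (Furin, Pcsk6 and Pcsk7), of the proteoglycan substrates 2 of 7 (Vcan and Acan), of the proteins shed by ADAMs 6 of 8, and of the ADAM partner proteins 2 of 5. Of the 8 further inhibitors and clearance proteins 0 had one, and of the 5 cathepsins 1 (Ctsb). Of the astacin proteases and procollagen helper proteins 3 of 7 had one (Bmp1, Tll1 and Pcolce2), and of 4 other matrix enzymes 1 (Htra1). Their 16 regions found in all 4 lists included 12 with a higher score in shMettl14, where 2471 of all 4929 regions were higher, but 0 passed the adjusted threshold and 0 had an unadjusted p under 0.05 by limma. One region of Pcsk7 was listed in both knockdown lists and neither control list.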

How the data were processed

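m6A-RIP-seq was analysed in 4 IP samples, 2 per shRNA. Groups and replicate letters came from the sample titles, and the 4 input samples entered only as the background of the peak calls. Per the labels and methods, the authors fragmented total RNA, aligned reads to mm10 with STAR, used SAMtools to keep unique alignments, and ran MACS2 on each IP with its input as control. Tool versions, peak-calling options and the strand of the m6A libraries are not given in the sources used here, and read totals were not analysed here. The deposited lists give the fold enrichment over local background (a ratio), −log10 p-values and −log10 q-values (smallest 2.01) for each summit. The authors also deposited 2 interval files of peaks shared by both replicates of an shRNA, with no values, that were used for presence only.

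A whole-number fragment pileup and a background were solved from fold enrichment and −log10 p. They matched within 0.001 in 100% of summits (largest error 0.000151) and carry counting error only. Summits were placed in exons of GENCODE M21, and positions were counted in 1 complete coding transcript per gene, that with the longest coding sequence (21495 genes). Regions were merged intervals with at least 1 bp of overlap. Regions found in all 4 lists were tested with limma 3.58.1 in R 4.3.3 (lmFit and eBayes, normal scores of ranks, no block), with Benjamini-Hochberg adjustment over all regions and a threshold of 0.05. The script was tested on simulated data with shifts larger than any difference seen here. That run does not show whether smaller changes could be called. Per-list values were compared by exact permutation tests in scipy 1.17.1. Sequences were read with pysam 0.24.0 from the RefSeq copy of GRCm38. The sites of 2 members are not reported here.

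The members, gene lists and tests were chosen with earlier results of these data known. Each member with a summit was named. All lists' values were given for the 12 members with the highest mean percentile of their strongest summit among those in all 4 lists, members with a region of one shRNA only, the 3 members with the most summits, and Timp1 to Timp4, Reck, Mmp2, Mmp3, Mmp9 and Mmp14. Alternatives covered peak thresholds, equal list lengths, windows, rank measures, region overlap and each list left out. RefSeq exons were added as an alternative after seeing the data.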

Additional observations from a re-analysis of the deposited data

How the results depend on the processing

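In each alternative of the region test, including the replicate letter as a block, 0 member regions passed (Benjamini-Hochberg, limma or Fisher's exact test), and 3 regions of other genes passed without shMettl14 A. Fisher's exact test could hardly call a region, since its rounded backgrounds were small. Replicates of the same letter shared little beyond it (correlation of deviations 0.0795 over 4929 regions), so they were not treated as pairs. At an unadjusted p under 0.05 the block gave 2 member regions (292 of all regions), and 1 each came from ranks of −log10 p (253), ranks of fragments (218), centred log2 fold enrichment (242) and the fit without shMettl14 B (362). The difference in the number of members with a summit (-0.5, shMettl14 minus shCTR) ran from -2 to 1 with a list left out, and was above 0 without shCTR A or without shMettl14 B. The difference in the share near the stop codon (2.85 percentage points) was -0.143 at a −log10 q of at least 3, -1.46 with a window of 400 nt and -0.179 by interval midpoints, and the difference for DRACH (6.85 points) was -0.0705 for GGACT. The difference in mean percentile (0.203) was -1.57 by −log10 p, -0.162 by fragments, and from -3.56 to 3.97 with a list left out (below 0 without shCTR B or without shMettl14 A). With a list left out, the lone list of that shRNA was assumed to vary like the other pair. The count of member regions of one shRNA only was 0 with equal list lengths, 2 by the authors' shared intervals, and from 1 to 5 with a list left out. The differences in member summits and in long exons kept their direction in all alternatives run, RefSeq exons included for the former. The change in mean percentile of single members (12 members, no test) moved by more than the replicate SD in 8 of 36 values under other measures, and its sign turned for Mmp14 (7.39 to -8.58 by −log10 p and -5.28 by fragments), Adam17 (14.8 to -1.08 by fragments), Adamtsl3 (-11.4 to 0.43 by the strongest summit) and Adamts5 (-0.083 to 1.74 by the strongest summit). With 1 list left out the sign turned in 8 of 48 values. With 2 lists per shRNA, medians of 13 to 16 fragments and no measure of transcript level, single peaks are imprecise, and shared gain or loss of m6A is outside what ranks can show.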
